A study of Homo sapiens with 12 samples.

Results

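Oxidative phosphorylation transcripts were followed gene by gene in Huh-7 xenograft tumours, and they were chosen by symbol: all genes beginning with MT-, NDUF, UQCR or ATP5, the COX4 to COX8 genes, SDHA, SDHB, SDHC, SDHD and CYC1. The rule gave 112 of the 19988 genes in the table, 13 encoded in mitochondrial DNA and 99 in the nucleus. By complex these were 53 members of complex I (NADH dehydrogenase, with 8 NDUFAF assembly factors), 4 of complex II (succinate dehydrogenase), 11 of complex III (cytochrome bc1), 22 of complex IV (cytochrome c oxidase) and 22 of complex V (ATP synthase).

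Huh-7 is an established human hepatocellular carcinoma line. The tumours were subcutaneous, in BALB/c nude mice 6 weeks old, which lack T cells, and treatment began at a mean tumour volume of 150 to 200 mm3. Of 4 groups, each of 3 libraries, the first (Control) received the co-solvent of the drug by gavage. The CS2164 group received this oral kinase inhibitor, also called chiauranib, at 10 mg/kg per day. The IR group received radiation of 2 Gy per day in 10 fractions, and the CS2164_IR group received both. Pentobarbital anaesthesia preceded radiation and is described for all mice. The cell line label is Huh-7 for every library, although the treated groups carry titles with Huh-8 (CS2164), Huh-9 (IR) or Huh-10 (CS2164_IR), and which is right was not tested. Every group holds tumours from 1 line, and that each library came from a separate mouse is not stated, so p-values measure only the spread between these libraries.

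Library totals ran from 12886607 to 16890346 counts. A list of 12 hepatocyte and liver cancer markers took 4.68% to 7.72% of counts in the 12 libraries, while each of 5 lists for endothelial, fibroblast, immune, muscle with fat, and erythroid cells took at most 0.00894%. KDR and FLT1 (endothelial), ADGRE1 (macrophage), ADIPOQ (fat) and HBA1 and HBA2 (erythroid) had 0 counts in every library, which allows up to 0.233 CPM (3 counts in the shallowest library, counting error only). Other markers of these lists were detected in every library, such as PECAM1 (endothelial, 72 to 157 counts), PLIN1 (fat, 46 to 171) and CD14 (macrophage, 5 to 25). The handling of reads from mouse host cells is not given in the sources used here. Control replicate 2 and CS2164 replicate 1 stood farthest from the mates of their groups, with mean Spearman correlations of 0.979 and 0.973.

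Oxidative phosphorylation moves electrons from NADH and succinate through complexes I to IV to oxygen, and complex V uses the resulting proton gradient to make ATP. Mitochondrial DNA encodes the membrane core of complexes I, III, IV and V, and complex II is wholly nuclear. Mitochondrial genes are transcribed as long strands by POLRMT with TFAM and then cut into separate RNAs, whereas nuclear subunits each have a promoter, and the factors NRF1, GABPA and YY1 are known to bind many of them. Liver cells rely heavily on this pathway.

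Bases shared between genes limit some of the measurements. The start of MT-ATP6, a proton channel subunit of complex V, lies inside the end of MT-ATP8, a small subunit of the same complex, and MT-ND4L and MT-ND4 of complex I overlap in the same way. Both short genes are shown from the GENCODE transcripts on GRCh38, plus strand, with the bases shared with the neighbour in capitals. MT-ATP8 (mitochondrial chromosome, 8366 to 8572) shares 46 of 207 bases with MT-ATP6 (8527 to 9207), and MT-ND4L (10470 to 10766) shares 7 of 297 with MT-ND4 (10760 to 12137).
MT-ATP8: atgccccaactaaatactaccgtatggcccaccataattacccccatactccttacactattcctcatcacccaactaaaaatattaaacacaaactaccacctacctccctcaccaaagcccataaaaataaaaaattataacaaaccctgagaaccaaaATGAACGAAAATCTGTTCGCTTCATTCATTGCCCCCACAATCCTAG
MT-ND4L: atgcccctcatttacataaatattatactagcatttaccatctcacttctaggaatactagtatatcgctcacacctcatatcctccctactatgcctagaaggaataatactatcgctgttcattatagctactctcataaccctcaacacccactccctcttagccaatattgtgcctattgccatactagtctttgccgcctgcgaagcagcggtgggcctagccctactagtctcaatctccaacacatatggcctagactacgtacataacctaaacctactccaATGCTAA

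MT-ATP8 received 33 to 85 counts per library and MT-ATP6 31636 to 76923, although both are read from the same RNA. How the counting treated reads over shared bases is not given in the sources used here, so the level of MT-ATP8 is uncertain. Pseudogenes named after 59 members, all 13 mitochondrial ones included, are in the annotation, and reads that fit both copies may be split or dropped. SDHA, the catalytic flavoprotein of complex II, has 3 such copies and only 34 to 98 counts. NDUFV2, a core subunit of complex I, has 1 and at most 23 counts.

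Promoters of nuclear members are shown for 3 genes on which the results turn: SDHD, the membrane anchor of complex II whose call with CS2164 held under every alternative, ATP5MK, a small membrane subunit of complex V, and NDUFS1, the iron-sulfur core subunit of complex I that moved the other way. The sequences run from 250 bases before to 50 after the start on GRCh38.p14 (RefSeq), 5′ to 3′ along the gene. Capitals mark matches, on either strand, to the letters GCGC, any base, TGCGC (NRF1), CCGGAAG (the ETS core bound by GABPA) and AANATGGCG (YY1). Matches may overlap.
SDHD, chr11:112086623-112086922, plus strand: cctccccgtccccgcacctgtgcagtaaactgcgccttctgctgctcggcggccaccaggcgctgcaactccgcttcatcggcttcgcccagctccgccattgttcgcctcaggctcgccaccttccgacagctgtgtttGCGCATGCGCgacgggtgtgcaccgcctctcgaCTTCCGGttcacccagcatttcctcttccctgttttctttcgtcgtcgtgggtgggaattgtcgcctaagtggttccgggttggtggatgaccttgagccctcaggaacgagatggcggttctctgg
ATP5MK, chr10:103396426-103396725, minus strand: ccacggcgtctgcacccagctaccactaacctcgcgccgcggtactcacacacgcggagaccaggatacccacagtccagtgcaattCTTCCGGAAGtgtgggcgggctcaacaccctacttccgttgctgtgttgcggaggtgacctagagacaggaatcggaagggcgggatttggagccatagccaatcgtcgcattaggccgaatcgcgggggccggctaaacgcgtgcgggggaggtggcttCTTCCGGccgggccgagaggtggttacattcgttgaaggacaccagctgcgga
NDUFS1, chr2:206159395-206159694, minus strand: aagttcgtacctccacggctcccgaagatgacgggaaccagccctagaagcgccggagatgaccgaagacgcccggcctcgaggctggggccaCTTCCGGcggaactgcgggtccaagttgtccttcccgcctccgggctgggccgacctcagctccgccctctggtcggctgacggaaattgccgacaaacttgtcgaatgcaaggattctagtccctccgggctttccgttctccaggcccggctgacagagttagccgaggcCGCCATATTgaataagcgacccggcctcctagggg

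SDHD holds 1 NRF1 and 1 ETS match. ATP5MK holds 3 ETS matches, of which a pair overlaps on opposite strands. NDUFS1 holds 1 ETS and 1 YY1 match. A promoter was found for 78 members. Of these, 23.1% held the NRF1 letters, 26.9% the ETS letters and 20.5% the YY1 letters. The shares among all 35116 promoters of the same length were 5.78%, 10.3% and 3.19%. Those promoters outnumber the 19988 genes in the table, whereas each member counts with 1 promoter. The sets are therefore not alike, expressed genes were not compared separately, and an excess in the members was not tested. Any of the 3 letter patterns was present in 14 of the 27 members with a promoter that were lower with CS2164 (51.9%). It was present in 26 of the 44 that did not pass (59.1%). These matches are letters only, and binding was not measured.

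Of the 112 members, 102 passed the filter on low counts, all 13 mitochondrial and 89 nuclear. The 10 left out were ATP5MF-PTCD1, ATP5MGL, COX4I2, COX6A2, COX6B2, COX7A1, COX7B2, COX8C, NDUFA7 and NDUFC2-KCTD14. COX6A2, COX8C and NDUFC2-KCTD14 had 0 counts in every library. Several of the 10 are paralogues of muscle, lung or testis, and their liver counterparts were measured at higher levels. Per kilobase, in Control, COX4I1 was at 84.9 CPM against 0.227 for COX4I2, and COX7A2 at 62.0 CPM against 0.177 for COX7A1. NDUFA4L2, the hypoxia-linked paralogue of NDUFA4, was at 0.662 CPM per kilobase against 48.3 for NDUFA4.

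Mitochondrial transcripts stood far above nuclear ones. In Control, MT-CO1, the catalytic core of complex IV, was at 18442 CPM per kilobase, and ATP5F1B, the catalytic beta subunit of complex V, was at 410 CPM per kilobase. The 13 mitochondrial genes took 5.13% to 10.6% of counts in the 12 libraries and the 88 nuclear subunits 0.558% to 0.918%.

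Tumours given CS2164 alone had lower oxidative phosphorylation transcripts than Control. Among 102 members tested, 37 were lower, 1 was higher and 64 missed the threshold (edgeR quasi-likelihood test, adjusted p under 0.05 over all genes). Of all 13521 tested genes 19.7% passed in this comparison, 9.32% lower and 10.4% higher. At an unadjusted p under 0.05 there were 66 members, where 35.0% of all genes met that rule. The median log2 change of the members was -0.46, with 94 of 102 below 0, and the median of all genes was -0.01. In bulk tumours, fewer cells of a type and less RNA per cell cannot be told apart.

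The mitochondrial genes and the nuclear members had medians of -0.45 and -0.47. Among mitochondrial genes 4 of 13 fell, and among nuclear members 33 of 89 fell and 1 rose, and the difference between the genomes was not tested. A correction for the trends with GC content and length in each library gave other values (called the GC and length correction here). Its trends were fitted on nuclear genes and applied to mitochondrial ones, whose median length was 784 bases against 5236 for all tested genes. How well it suits mitochondrial genes was not tested. The nuclear median was then -0.24 with 20 lower and 1 higher, and the mitochondrial median turned to 0.06 with 0 called.

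MT-CO3, a core subunit of complex IV (mitochondrial chromosome, 9207 to 9990), was at 7649.7, 10479 and 8615 CPM in Control and at 4381, 5780.3 and 5406 CPM with CS2164. The groups did not overlap. Its log2 change was -0.78 ± 0.19 (SE, n = 3 per group, edgeR adjusted p 0.0132).

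MT-ATP6 read 3083, 4831 and 3629 CPM in Control and 2252, 2283 and 2349 CPM with CS2164, a log2 change of -0.75 ± 0.19 (edgeR adjusted p 0.0162). Every CS2164 library was below every Control library, and the CS2164 libraries lay close together. MT-ND2, of the proton-pumping arm of complex I, changed by -0.69 ± 0.23 on the log2 scale (edgeR adjusted p 0.0402). MT-ND6, the only subunit among the 13 encoded on the other strand, changed by -0.69 ± 0.22 (edgeR adjusted p 0.0325). The protocol does not mark strand, so the MT-ND6 counts may include RNA of the opposite strand.

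The remaining 9 mitochondrial genes did not pass. MT-ND3 and MT-ND4 of complex I were at -0.64 ± 0.23 and -0.45 ± 0.19, and MT-CO2, which accepts electrons from cytochrome c in complex IV, was at -0.48 ± 0.18 (edgeR adjusted p 0.0579, 0.0922 and 0.0626). MT-ND1, MT-CYB, MT-ND5 and MT-ATP8 were at -0.42 ± 0.21, -0.39 ± 0.18, -0.19 ± 0.23 and -0.10 ± 0.33. MT-CO1 had 24731, 27107 and 33475 CPM in Control and 22996, 21531 and 23022 CPM with CS2164, separate but only by a small margin, with a log2 change of -0.34 ± 0.19 (edgeR adjusted p 0.207). MT-ND4L alone was above 0, at 0.25 ± 0.22. For 10 of the 13 genes all CS2164 libraries lay below all Control libraries, an arrangement seen in 17.8% of all genes, while 18.6% showed the opposite one. All 4 mitochondrial calls ended without Control replicate 2, without the 2 distant libraries, after the GC and length correction, or in a fit of these groups alone, and each kept its sign there.

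**Figure D1:**
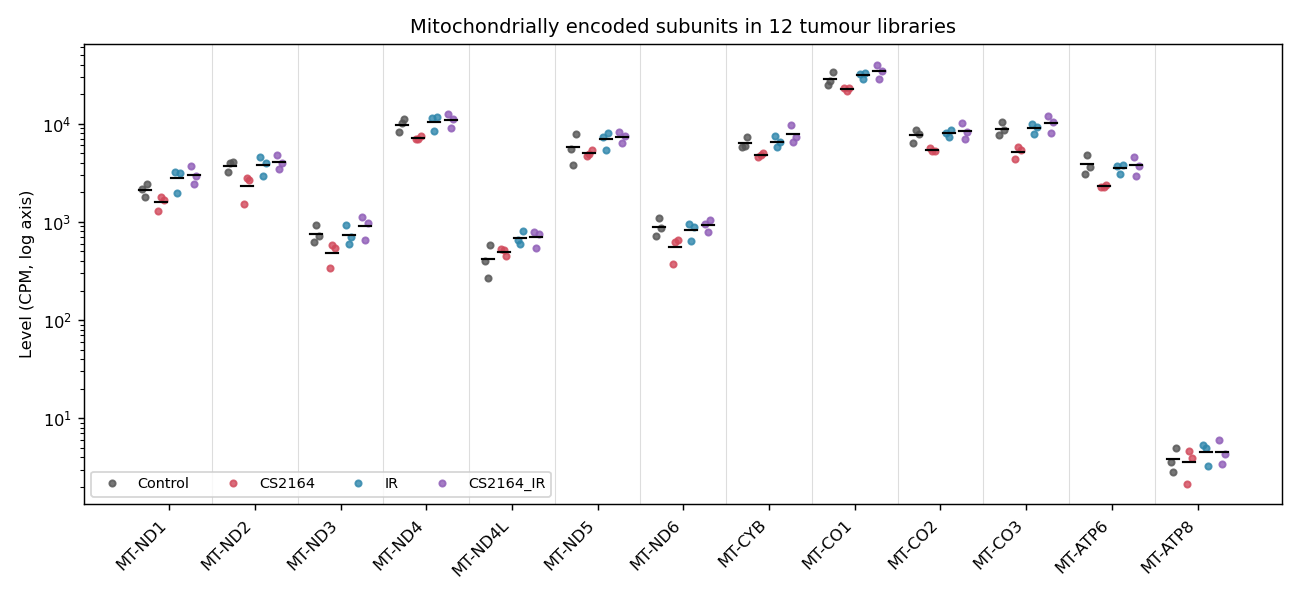
Levels of the 13 mitochondrially encoded genes in CPM on a log axis, with 1 point per library, 4 groups in colour and a black bar at each group mean. MT-CO3 and MT-ATP6 show all 3 CS2164 libraries below the Control libraries, and MT-ATP8 lies far below its neighbour MT-ATP6.

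In complex I, 10 of 36 tested nuclear subunits fell and 1 rose with CS2164. The 7 nuclear core subunits, which hold the flavin and iron-sulfur centres, had a median log2 change of -0.10, and the 29 tested accessory subunits, which wrap and stabilise the core, had a median of -0.47. NDUFB3, an accessory subunit of the membrane arm, changed by -0.74 ± 0.18 (edgeR adjusted p 0.013).

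NDUFA5, an accessory subunit of the matrix arm, was at 82.9, 111 and 81.5 CPM in Control and 27.9, 60.4 and 56.6 CPM with CS2164, with CS2164 replicate 1 lowest of all. It changed on the log2 scale by -0.93 ± 0.23 (edgeR adjusted p 0.0128). NDUFB5, of the membrane arm (chromosome 3, 179604690 to 179627647), fell by 1.30 ± 0.31 on the log2 scale (edgeR adjusted p 0.0112), from 15.5 ± 4.00 to 6.32 ± 3.05 CPM (SD).

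NDUFA13, also known as GRIM-19, rose by 0.89 ± 0.27 (edgeR adjusted p 0.0286), from 6.46, 3.77 and 6.40 CPM to 10.7, 10.5 and 9.51 CPM. It shares 21.0% of its exonic bases with YJEFN3 and a readthrough gene, so its reads cannot be fully assigned. NDUFV2 also passed, with a log2 change of -2.42 ± 0.70 (edgeR adjusted p 0.0237), but it rests on very few reads, 0 in CS2164 replicate 1.

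The NDUFAF proteins build complex I and are not part of it. Of the 8 measured, 7 fell with CS2164 and NDUFAF3, at -0.19 ± 0.16, did not pass. NDUFAF4 (chromosome 6, 96889313 to 96897881) was at 18.2, 31.7 and 21.5 CPM in Control and 9.48, 13.7 and 10.6 CPM with CS2164, so the groups did not overlap. The log2 change of NDUFAF4 was -1.08 ± 0.22 (edgeR adjusted p 0.00549). It was -0.31 after the GC and length correction, which ended the call. NDUFAF5 changed by -0.64 ± 0.17 (edgeR adjusted p 0.0167). NDUFAF6 changed by -0.79 ± 0.18 (edgeR adjusted p 0.00978) and had a value of -0.78 after it.

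Complex II, which also works in the citrate cycle, had 2 of 4 subunits lower. SDHD (chromosome 11, 112086773 to 112120013, promoter above) was at 26.7, 43.3 and 26.8 CPM in Control and at 6.14, 17.8 and 13.6 CPM with CS2164. Every CS2164 library lay below every Control library, and CS2164 replicate 1 was the lowest. Its log2 change was -1.37 ± 0.29 (edgeR adjusted p 0.00644), and the call held under all alternatives, with a value of -0.89 after the GC and length correction. SDHD shares 12.2% of its exonic bases with TIMM8B and another gene.

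SDHB, the iron-sulfur subunit, changed by -0.49 ± 0.16 (edgeR adjusted p 0.0407), with overlapping groups. SDHA and SDHC did not pass, at -0.32 ± 0.24 and -0.29 ± 0.13.

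Complex III had 2 of 10 nuclear subunits lower. UQCRB, which binds ubiquinone, was at 34.9, 73.5 and 39.4 CPM in Control and 20.6, 32.9 and 30.1 CPM with CS2164, a change of -0.82 ± 0.23 on the log2 scale (edgeR adjusted p 0.0223). UQCRQ changed by -0.64 ± 0.19 (edgeR adjusted p 0.0299). The catalytic CYC1, cytochrome c1, and the large core protein UQCRC1 did not pass, at 0.28 ± 0.17 and 0.12 ± 0.17.

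Complex IV had 5 of 13 tested nuclear subunits lower. COX7A2 read 104, 167 and 86.1 CPM in Control and 68.9, 72.9 and 67.8 CPM with CS2164, groups that did not overlap. COX7A2 changed by -0.77 ± 0.18 (edgeR adjusted p 0.0111). NDUFA4, named for complex I but a subunit of complex IV (chromosome 7, 10931951 to 10940256), changed by -0.64 ± 0.14 (edgeR adjusted p 0.00757).

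Within isoform sets of complex IV, COX7A2L, a supercomplex factor related to COX7A2, changed by -0.59 ± 0.15 (edgeR adjusted p 0.0162). COX6B1 changed by -0.57 ± 0.18 (edgeR adjusted p 0.0353) and COX6C by -0.76 ± 0.22 (edgeR adjusted p 0.0245). COX4I1, COX6A1, COX8A and NDUFA4L2 did not pass, at -0.41 ± 0.17, -0.70 ± 0.46, -0.09 ± 0.32 and 0.56 ± 0.49.

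Complex V had 7 of 17 tested nuclear subunits lower, and all 17 estimates were below 0. The median was -0.14 for the 5 subunits of the catalytic F1 head, of which 1 fell, against -0.58 for the 8 tested membrane subunits, of which 4 fell. The difference between these roles was not tested. ATP5MG, membrane subunit g (chromosome 11, 118401154 to 118431496), was at 12.8, 19.9 and 12.5 CPM in Control and 4.64, 6.28 and 7.37 CPM with CS2164.

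The ATP5MG groups were well apart, with a log2 change of -1.31 ± 0.23 (edgeR adjusted p 0.00455), and the call held under all alternatives. ATP5MG had 71 to 317 counts per library and 6 pseudogenes by name, and it shares 8.2% of its exonic bases with another gene of the table. ATP5MJ changed by -0.88 ± 0.18 (edgeR adjusted p 0.00592), and ATP5F1C, the rotor subunit gamma of the head, by -0.76 ± 0.16 (edgeR adjusted p 0.00687). ATP5MK had 28.6, 44.0 and 27.4 CPM in Control and 16.5, 21.4 and 18.1 CPM with CS2164, a change of -0.84 ± 0.20 (edgeR adjusted p 0.0117).

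Of the 3 genes for the identical c-ring subunit, ATP5MC1 passed, at -0.49 ± 0.16 (edgeR adjusted p 0.043), whereas ATP5MC2 and ATP5MC3 were at -0.40 ± 0.18 and -0.44 ± 0.18 and did not pass. ATP5IF1, the inhibitor of ATP hydrolysis by complex V, was at -0.32 ± 0.14 and did not pass. ATP5F1B was at 823, 1055 and 874 CPM in Control and 1042, 891 and 783 CPM with CS2164, which overlap.

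**Figure D2:**
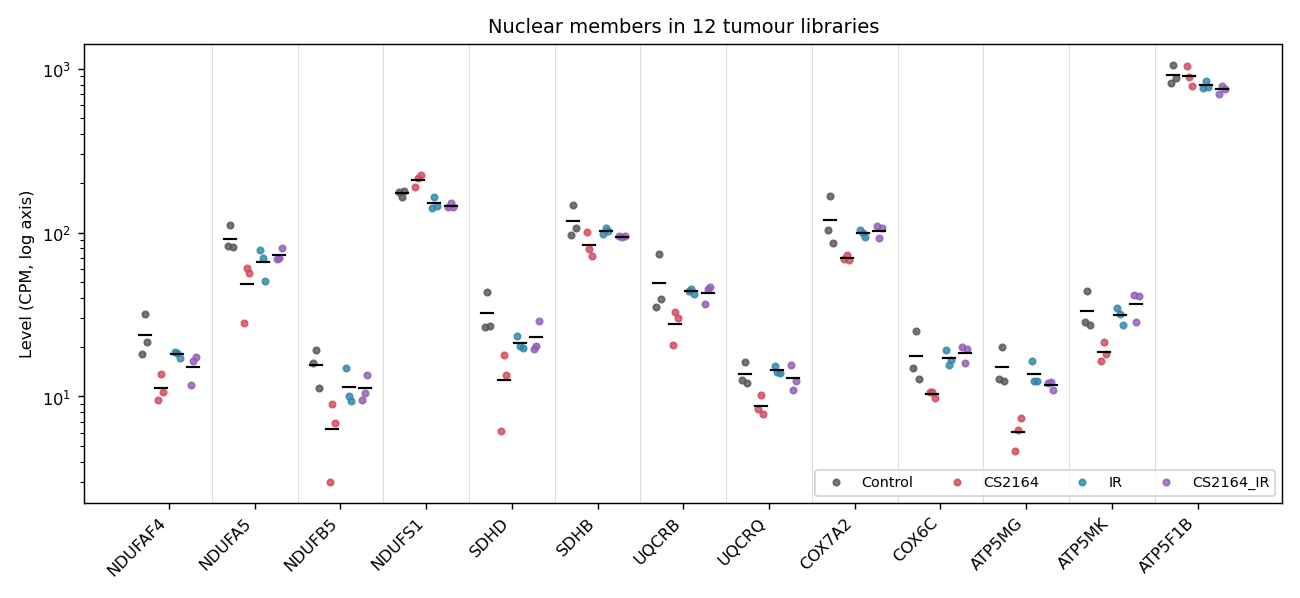
Levels of 13 nuclear members in CPM on a log axis, drawn as for the mitochondrial genes. ATP5MG and SDHD lie lowest in the CS2164 libraries, NDUFS1 lies highest there, and Control replicate 2 is the top point for most of the others.

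The count of members called changed with the libraries used in the fit. Control replicate 2 held 9625 CPM of nuclear subunits in sum, against 6949 and 6730 CPM in its mates. Without it, 6 of 104 members were called in place of 38 of 102, and the median was -0.30. Those 6 were SDHD, NDUFA4, ATP5MG, ATP5MJ, ATP5F1C and NDUFAF4. Without both distant libraries 11 were called, and in a fit of the Control and CS2164 libraries alone 3 were. The shares of all genes called in these fits are not given here, so a loss particular to the members cannot be read from them. The part of Control replicate 2 in the result was not tested beyond these values.

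The change with CS2164 also moved with base composition. Across all genes Spearman's rho between log2 change and GC content was 0.45, and across the 89 nuclear members 0.57, as descriptions over genes of the same libraries. The 33 nuclear members that fell had a median GC content of 43.6%, the 55 that did not pass 49.8%, and the 13 mitochondrial genes 44.3%. After the GC and length correction 21 members were called, and 15 of the 34 nuclear calls held. Fibroblast and pericyte markers, at most 0.00437% of counts in Control and 0.00507% to 0.00798% with CS2164, also differed in sum. Of 6 such markers tested, 5 were above 0 and 1 below 0. The 2 called higher were COL1A2 and COL1A1, the latter at only 5 to 27 counts per library. The same markers took 0.00573% to 0.00894% with IR and 0.00614% to 0.0072% with CS2164_IR, and their part in the result was not tested.

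**Figure D3:**
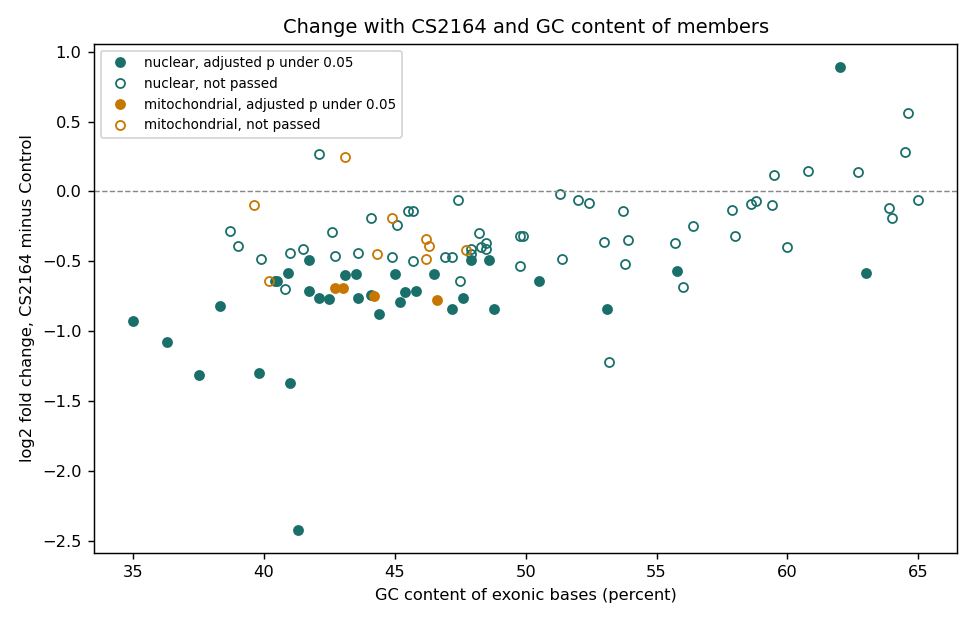
Log2 change of each tested member with CS2164 relative to Control against GC content in percent, with filled points for adjusted p under 0.05. GC content is that of the longest annotated transcript, which the axis label calls exonic bases. Members at lower GC content lie further below 0, and NDUFA13, at 62.0% GC, is the filled point above 0.

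Genes around the complexes were read from 7 lists in the same fit, where 9.32% of all genes were lower and 10.4% higher. Assembly factors outside the member rule had 10 of 45 lower and 0 higher, led by TMEM126B of complex I assembly at -0.99 ± 0.19, SDHAF3 at -0.94 ± 0.20 and the copper chaperone COX17 at -0.76 ± 0.16 (edgeR adjusted p 0.00481, 0.0068 and 0.0075). Mitochondrial import and carrier genes had 8 of 27 lower and 0 higher, such as TIMM9 at -1.25 ± 0.27 (edgeR adjusted p 0.0068).

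For mitochondrial transcription and DNA maintenance, 8 of 26 were lower and 2 higher. SSBP1, which coats single-stranded mitochondrial DNA, changed by -0.91 ± 0.17 (edgeR adjusted p 0.00455), and the topoisomerase TOP3A by 0.66 ± 0.14 (edgeR adjusted p 0.00785). POLRMT and TFAM did not pass, at 0.37 ± 0.16 and -0.37 ± 0.20. Mitochondrial RNA processing had 3 of 27 lower, near the share of all genes, among them SLIRP, which stabilises mitochondrial mRNA, at -0.66 ± 0.17 (edgeR adjusted p 0.017), while its partner LRPPRC was at -0.14 ± 0.16 and did not pass.

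Among 18 nuclear regulators, PPARA, a receptor that drives fatty acid oxidation, rose by 0.93 ± 0.17 (edgeR adjusted p 0.00455), and GABPB1, the partner of GABPA, fell by 0.49 ± 0.17 (edgeR adjusted p 0.0463). GABPA, NRF1 and PPARGC1A did not pass, at -0.26 ± 0.22, 0.16 ± 0.20 and 0.35 ± 0.42. Of 19 genes for electron carriers and ubiquinone, 3 fell, among them CYCS, cytochrome c, at -0.82 ± 0.21 (edgeR adjusted p 0.0137). The citrate cycle list had 3 of 24 higher and 3 lower, near the shares of all genes, with OGDH at 0.67 ± 0.14 and PC at 0.76 ± 0.17 among the higher.

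Radiation alone gave 0 of 102 members past the threshold against Control, where 0.436% of all genes passed. At an unadjusted p under 0.05 there were 10 members, a rule that 15.7% of all genes met, and DESeq2 called 0. The mitochondrial median was 0.08 and the nuclear median -0.09. MT-ND4L was at 403, 271 and 580.2 CPM in Control and at 659.6, 591 and 805 CPM with IR, which do not overlap, but its change of 0.71 ± 0.22 did not pass (edgeR adjusted p 0.148). COX7A2L had the lowest p of the members, at -0.50 ± 0.15 (edgeR adjusted p 0.142). ATP5F1A, the alpha subunit of the F1 head, SDHC and NDUFAF4 were at -0.40 ± 0.15, -0.33 ± 0.13 and -0.39 ± 0.21, and UQCR11 of complex III at 0.39 ± 0.17. Hepatocyte and liver cancer markers were below 0 in 12 of 12 genes, with a median of -0.52 and 1 called lower.

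The combination against Control also gave 0 of 102 members by edgeR, where 0.192% of all genes passed, with 10 at an unadjusted p under 0.05 (16.4% of all genes) and 1, MT-ND4L, called by DESeq2. The mitochondrial median was 0.25 and the nuclear median -0.10. MT-ND4L was 798, 544 and 757 CPM in this group, and 1 library fell within the Control range. Its change was 0.74 ± 0.22 (edgeR adjusted p 0.131). NDUFAF4 was at -0.65 ± 0.21 and did not pass (edgeR adjusted p 0.169). ATP5F1A and COX7A2L were at -0.46 ± 0.15 and -0.40 ± 0.15, and SDHA and MT-CYB at 0.51 ± 0.24 and 0.30 ± 0.18.

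CS2164 added to radiation gave 0 of 102 members against IR alone, and 0% of all genes passed in that comparison, with 0 members at an unadjusted p under 0.05 (2.45% of all genes) and 0 by DESeq2. All 13 mitochondrial estimates were at or above 0, with a median of 0.09, and the nuclear median was -0.01. ATP5MG was at 16.4, 12.4 and 12.4 CPM with IR and 12.0, 12.2 and 10.9 CPM with CS2164_IR. Its CS2164_IR libraries all lay below its IR libraries, by a narrow margin, and its change of -0.23 ± 0.22 did not pass. SDHD was at 23.5, 20.2 and 19.8 CPM against 19.6, 20.3 and 28.8 CPM, and there the groups overlap. The lowest p of each complex belonged to NDUFA1 (0.39 ± 0.20), SDHB (-0.11 ± 0.16), MT-CYB (0.24 ± 0.18), COX8A (-0.33 ± 0.30) and ATP5PO, of the peripheral stalk of complex V (-0.49 ± 0.25), and among assembly factors to NDUFAF4 (-0.26 ± 0.21).

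The difference between the effects of CS2164 with and without radiation was tested as an interaction. By edgeR 0 of 102 members and 0% of all genes passed, with 36 members at an unadjusted p under 0.05, a rule that 20.2% of all genes met. DESeq2 called 11 members, SDHD and MT-CO3 among them, and its share of all genes is not given here. The estimates were above 0 for 89 members, with a median of 0.48, and for 12 of 13 mitochondrial genes. The lowest p belonged to ATP5MK, at 1.07 ± 0.28 (edgeR adjusted p 0.101), and SDHD was at 1.48 ± 0.40 with an equal adjusted p. MT-CO3, NDUFA5, NDUFAF6 and MT-CYB were at 0.96 ± 0.27, 1.08 ± 0.32, 0.81 ± 0.26 and 0.63 ± 0.26. Hepatocyte and liver cancer markers moved with the interaction too, with 12 of 12 above 0, a median of 0.74, 8 at an unadjusted p under 0.05 and 0 called, and their part in the result was not tested.

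Against CS2164 alone, tumours given the combination had higher transcripts of many members. This comparison shares its CS2164 libraries with the first, so the values are set side by side and not counted as a second line of evidence. Of 102 members 22 rose and 1 fell, where 9.70% of all genes passed, 3.79% higher and 5.91% lower. At an unadjusted p under 0.05 there were 57 members, where 27.9% of all genes met that rule. The member median was 0.43 and that of all genes 0.04. Here 10 of 13 mitochondrial genes rose, with a median of 0.69, and 12 of 89 nuclear members rose, with a median of 0.41.

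MT-CO3 was at 12112, 8001 and 10412 CPM with the combination, every library above the CS2164 libraries given earlier. Its log2 change was 0.97 ± 0.20 (edgeR adjusted p 0.00809). MT-ND1, of the membrane arm of complex I, rose by 0.93 ± 0.21 (edgeR adjusted p 0.0136), from 1299, 1784 and 1684 to 3703, 2435 and 2938 CPM. MT-CO2 rose by 0.64 ± 0.18 (edgeR adjusted p 0.0318) and MT-ATP6 by 0.71 ± 0.19 (edgeR adjusted p 0.0289). MT-ND2, MT-ND3, MT-ND4, MT-ND6 and MT-CO1 rose by 0.81, 0.92, 0.61, 0.74 and 0.61. MT-CYB, the mitochondrial subunit of complex III, rose by 0.69 ± 0.18 (edgeR adjusted p 0.0254).

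MT-ND4L, MT-ND5 and MT-ATP8 missed the threshold. In 12 of the 13 genes all libraries of the combination lay above all CS2164 libraries, as in 16.7% of all genes (15.5% the other way). After the GC and length correction the mitochondrial median was 0.24 and 1 of the 10 calls, MT-CO3, held.

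ATP5MK was at 41.3, 28.4 and 40.8 CPM with the combination, all above the CS2164 libraries, and rose by 0.98 ± 0.20 (edgeR adjusted p 0.00881), a call that held under all alternatives. ATP5MG rose by 0.94 ± 0.23 (edgeR adjusted p 0.0174). COX6C rose by 0.83 ± 0.22 (edgeR adjusted p 0.0254), and SDHA, at 34 to 98 counts, by 0.84 ± 0.24 (edgeR adjusted p 0.0362).

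Accessory subunits of complex I that rose were NDUFA1, NDUFA3, NDUFA12, NDUFB4 and NDUFB6, by 0.77, 0.72, 0.48, 0.60 and 0.68, and the assembly factors NDUFAF5 and NDUFAF6 rose by 0.63 and 0.67. No nuclear subunit of complex III passed, 0 of 10, with 3 at an unadjusted p under 0.05.

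NDUFS1 (chromosome 2, 206114817 to 206159603) was the member that fell. It was at 189.9, 215 and 223 CPM with CS2164 and 144, 150.5 and 143 CPM with the combination, so the groups were well apart. Its log2 change was -0.52 ± 0.12 (edgeR adjusted p 0.0162). In Control it was at 177, 165 and 179 CPM, and its change with CS2164 alone, 0.27 ± 0.12, did not pass.

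Left-out libraries moved this comparison too. The 23 calls became 2 without CS2164_IR replicate 1 (MT-CO3 and ATP5MK), 3 without CS2164_IR replicate 3, 9 without CS2164 replicate 3 and 14 without CS2164 replicate 2, and 38 without Control replicate 2. In a fit of these 2 groups alone 8 were called. Shares of all genes called in these fits are not given here.

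In the surrounding lists few genes passed, where 3.79% of all genes rose and 5.91% fell. Assembly factors had 3 of 45 higher, with COX17 at 0.72 ± 0.16 (edgeR adjusted p 0.0136), transcription and DNA maintenance 2 of 26, and import 1 of 27. PPARA fell by 1.06 ± 0.17 (edgeR adjusted p 0.00237). PC and OGDH fell by 0.79 and 0.61. The lists for RNA processing and for electron carriers had 0 called, with 4 and 3 genes at an unadjusted p under 0.05.

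**Figure D4:**
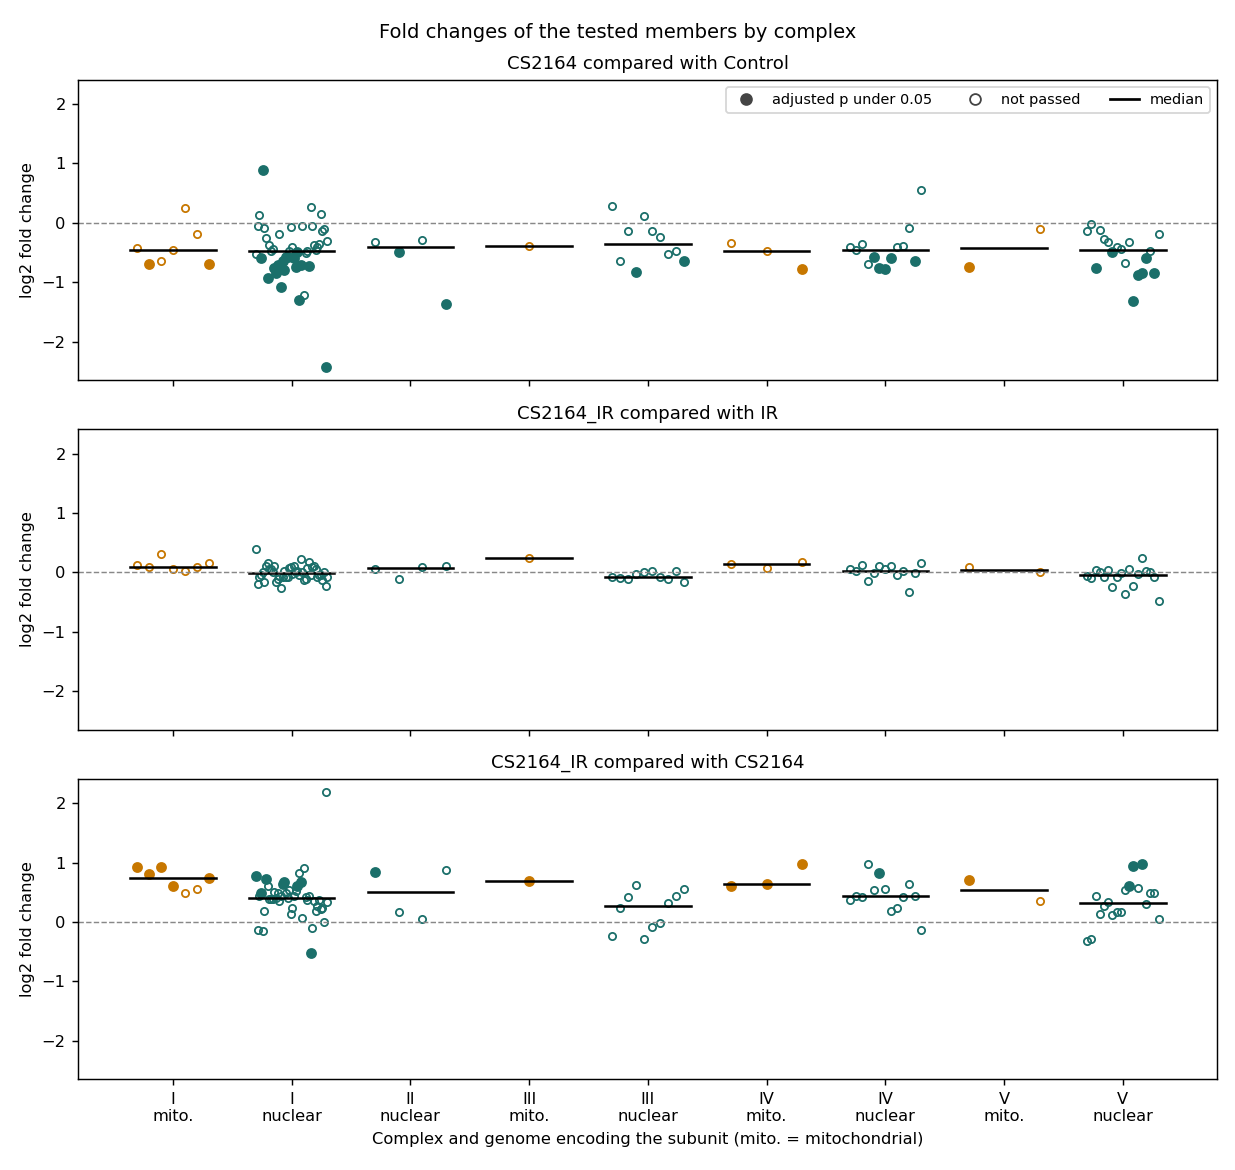
Log2 fold change of each of the 102 tested members by complex and encoding genome in 3 comparisons, with filled points for adjusted p under 0.05 and a black line at each median. Medians lie below 0 for CS2164 against Control, near 0 for CS2164_IR against IR, and above 0 for CS2164_IR against CS2164, and complex I nuclear points include the assembly factors.

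The balance of the 2 genomes was described by the log2 ratio of summed mitochondrial to summed nuclear CPM, with no test. It was 3.30, 3.04 and 3.71 in Control, 2.92, 3.18 and 3.41 with CS2164, 3.74, 3.33 and 3.68 with IR, and 3.97, 3.49 and 3.70 with the combination. The means were 3.35 ± 0.34, 3.17 ± 0.24, 3.58 ± 0.22 and 3.72 ± 0.24 (SD, n = 3). The Control and CS2164 libraries overlap, and every library of the combination lies above every CS2164 library. The latter groups overlapped after the GC and length correction, where the difference fell from 0.55 to 0.29, and when the mean of log2 CPM replaced the log2 of sums, where it was 0.34.

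Summed mitochondrial CPM was 78577 ± 9949 in Control, 57882 ± 2203 with CS2164, 84532 ± 9991 with IR and 92465 ± 16122 with the combination. Summed nuclear CPM was 7768 ± 1612, 6468 ± 842, 7013 ± 246 and 6936 ± 179 in the same order. The mitochondrial sums with CS2164 lay below those of every other library, while the nuclear sums overlapped.

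Complex by complex, the ratio in complex I was 3.24 ± 0.40, 3.06 ± 0.30, 3.45 ± 0.31 and 3.55 ± 0.17 in Control, CS2164, IR and CS2164_IR. In complex III it was 2.58 ± 0.40, 2.27 ± 0.33, 2.74 ± 0.29 and 3.00 ± 0.35, and in complex IV 5.07 ± 0.40, 5.11 ± 0.20, 5.27 ± 0.15 and 5.36 ± 0.22. Control and CS2164 libraries overlapped in complexes I, III and IV.

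Complex V was the one in which they did not overlap. There the ratio was 0.43, 0.58 and 0.66 in Control, -0.15, 0.06 and 0.28 with CS2164, 0.79, 0.41 and 0.80 with IR, and 1.16, 0.44 and 0.77 with the combination. MT-ATP6 makes up nearly all of its mitochondrial sum. The log2 change of MT-ATP6 with CS2164 against Control was -0.11 after the GC and length correction. The complex V ratio itself was not recomputed under the alternatives. The ratio of all members with CS2164 minus Control was -0.18, and it turned to 0.21 after the GC and length correction. It was -0.03 as a mean of log2 CPM, 0 without Control replicate 3, -0.06 without CS2164 replicate 1, -0.34 without Control replicate 2 and -0.30 without CS2164 replicate 3.

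**Figure D5:**
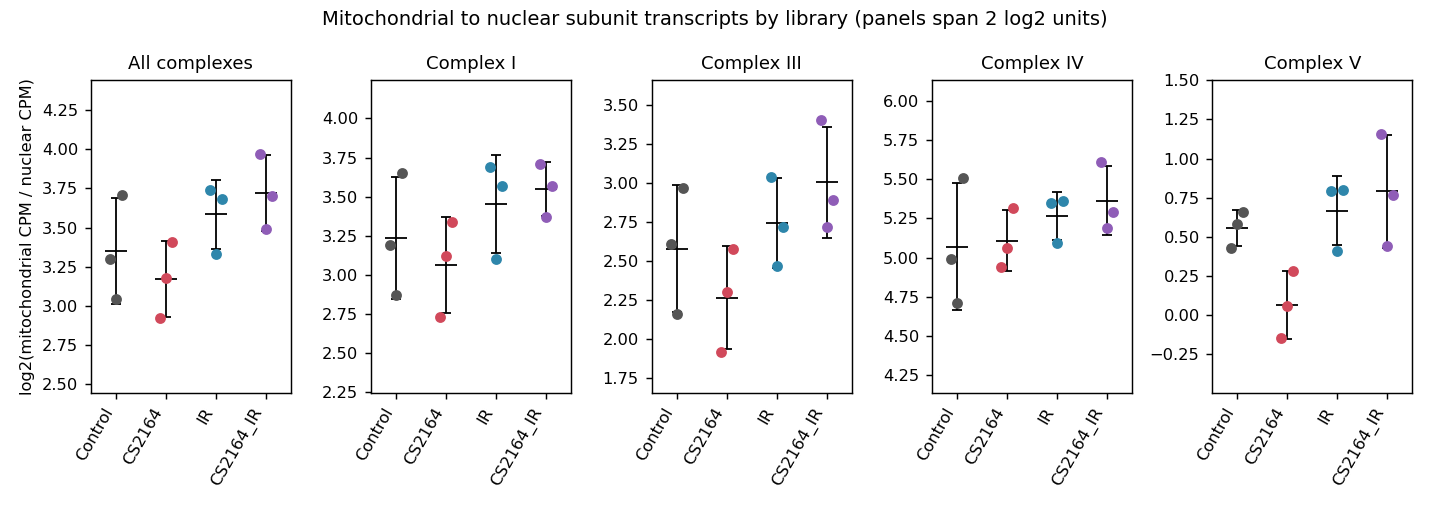
Log2 ratio of summed mitochondrial to summed nuclear CPM in each library, for all complexes and for complexes I, III, IV and V, with mean and SD in black and panels of equal span. In complex V the 3 CS2164 libraries, from -0.15 to 0.28, lie below the Control libraries, and elsewhere these groups overlap.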

How the data were processed

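RNA was selected by poly-T beads, and the protocol in the labels does not mark strand, so reads of overlapping genes on opposite strands cannot be separated. Per the submitters' processing notes, the tools were HISAT2 2.1.0 and HTSeq 0.9.1 with the build GRCh38. Neither the annotation release nor the counting mode is given in the sources used here. For each gene and library, the deposited table has whole-number counts of reads beside FPKM values. The deposited FPKM of the authors equalled the count divided by length and library total (183166 values, all within 0.1%) and gave only gene length here.

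The members and lists were chosen with earlier results of these data known. Counts were filtered with filterByExpr (13521 genes kept of 19988), scaled by TMM and fitted with the robust quasi-likelihood model of edgeR 4.0.16 (R 4.3.3) on all 12 libraries, with a term per group. There were 5 comparisons of group pairs and the interaction. p-values were adjusted by Benjamini-Hochberg over all tested genes, with a threshold of 0.05. CPM are TMM-scaled. SE is the log2 change divided by the square root of F. The model was tested on simulated data. Gene positions, GC content and exon overlap came from GENCODE release 29. GC content was that of the longest annotated transcript of each gene.

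Genes named were all 13 mitochondrial genes, SDHA to SDHD, CYC1, isoform sets and ATP5IF1, up to 3 members passing per complex and direction by adjusted p (where none passed, the lowest p), up to 3 per list, and 7 regulators always looked up. Others are named where they complete a count, which was chosen after their values were seen. Alternatives were RLE and upper-quartile scaling, scaling without mitochondrial genes, a filter at a mean of 1 CPM, no filter, a block for replicate number, removal of each library's GC and length trends (splines with 4 degrees of freedom), both together, limma 3.58.1 voom, DESeq2 1.42.0, the compared groups alone, and libraries left out. The GC and length trends were fitted on nuclear genes only and applied to mitochondrial genes as well. The ratio of genomes leaves out assembly factors, ATP5IF1 and readthrough genes. It was also computed per kilobase and as a mean of log2 CPM. Results for some genes of the lists are not reported here.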

Additional observations from a re-analysis of the deposited data

Results flagged for a closer look

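The summed CPM of the 4 complex II subunits moved in opposite directions with radiation in the absence and presence of CS2164. This difference between groups was not tested. It was picked by a scan of summed CPM and genome ratios, over the complexes and both treatments, for separated groups of opposite direction. All 3 IR libraries (203, 206 and 197 CPM) lay below all 3 Control libraries (212, 305 and 219.5 CPM), and all 3 CS2164_IR libraries (199, 198 and 206 CPM) lay above all 3 CS2164 libraries (183, 177 and 163 CPM). The difference between the effects was 70.2 CPM. Control replicate 2 holds the highest of these sums, and 0 of 4 complex II genes passed the interaction test of edgeR, with 1 at an unadjusted p under 0.05, SDHD, which DESeq2 called (adjusted p 0.0199).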

How the results depend on the processing

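The 5 counts of members called between group pairs and the count for the interaction were recomputed under each alternative. These counts are given without the share of all genes called in the same fit, so a change particular to the members cannot be read. For CS2164 against Control, 38 members became 21 after the GC and length correction, 20 after it with the replicate block added, 3 with the compared groups alone and 11 without the 2 distant libraries, and leaving out each library in turn gave 6 to 43. For CS2164_IR against CS2164, 23 became 8 with the compared groups alone and 55 without the 2 distant libraries, and left-out libraries gave 2 to 38. DESeq2 called 1 member for CS2164_IR against Control and 11 for the interaction, where the GC and length correction called 1. The causes were not tested, except that fits of the compared groups alone use fewer libraries. IR against Control and CS2164_IR against IR stayed at 0 throughout. The log2 ratio of the genomes for CS2164 minus Control went from -0.18 to 0.21 after the GC and length correction, and its interaction from 0.32 to -0.08. NDUFB4 reversed with CS2164 against Control, to 0.128 after the GC and length correction and 0.121 with the block added. The replicate block gave 33 members for CS2164 against Control and 20 for CS2164_IR against CS2164, within 1.5 times of the counts without it. Same-numbered libraries of different groups correlated in their deviations from group means at -0.37 to 0.15 over 18 pairs. Differently numbered ones correlated at -0.23 to 0.33 over 36 pairs. No pairing by number was seen, although these values cannot exclude one. Depth limits SDHA, NDUFV2, MT-ATP8 and the 10 members not tested. Other tested members with few counts are limited too, such as COX6A1 (11 to 62), NDUFA4L2 (11 to 68), COX8A (24 to 80) and ATP5PO (32 to 76).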
